A study of Mus musculus with 12 samples.

Results

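The genes described here encode 9 proteoglycans, decorin (Dcn), biglycan (Bgn), lumican (Lum), versican (Vcan), perlecan (Hspg2), glypican-1 (Gpc1), syndecan-1 (Sdc1), syndecan-4 (Sdc4) and chondroitin sulfate proteoglycan 4 (Cspg4, also called NG2), and 1 enzyme, hyaluronan synthase 2 (Has2). They were taken by symbol, 10 of the 32544 genes in the deposited table, and all 10 were among the 14285 genes tested. A proteoglycan is a core protein that carries long sulfated sugar chains, which bind water, growth factors and lipoproteins. Decorin, biglycan and lumican are small leucine-rich proteoglycans that bind collagen fibrils, and versican links to hyaluronan, a free sugar polymer that hyaluronan synthases make at the plasma membrane. In the arterial wall these molecules are made mainly by smooth muscle cells and fibroblasts, and their chains can retain lipoproteins.

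RNA of 4 groups of 3 libraries was sequenced. Bone marrow-derived macrophages (BMDMs) came from LysMCre control mice, labelled WT, or from PHD2 conditional knockout mice, labelled PHD2cko. Both carried the LysM-Cre transgene, whose promoter is active in myeloid cells, on a shared C57Bl6/J background, so that the labels differ in PHD2, a prolyl hydroxylase that marks hypoxia-inducible factors for breakdown. The macrophages were differentiated in medium conditioned by L929 cells and RNA was taken 24 h after seeding. NIH/3T3 cells, an immortalized mouse embryonic fibroblast line (3T3), were starved of serum and then kept for 72 h in medium conditioned by BMDMs of either label. For both labels this medium also held serum and L929-conditioned medium. The ages of the mice and the oxygen condition of the sequenced cultures are not given in the sources used here, and no source says whether the 3 libraries of a group came from separate mice or cultures, so that p-values measure the spread between these libraries, which may be technical.

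Library totals ran from 15516465 to 25199770 estimated counts. Egln1, the gene of PHD2, was at 55.8, 54.7 and 55.5 counts per 1000000 (CPM) in WT macrophages and at 68.8, 68.3 and 71.6 CPM in those labelled PHD2cko, higher and not lower (log2 fold change 0.33, edgeR adjusted p = 0.00203), and values per exon were not used. The study presents its own mRNA check of the PHD2 knockdown in such macrophages and reports an activated hypoxia response in them. As Egln1 was not lower here, the groups are called by their labels. All 22 macrophage markers were counted in every BMDM library, where their sum was 37325 to 38347 CPM in WT and 33321 to 34440 CPM in those labelled PHD2cko, and all 13 fibroblast markers in every 3T3 library, at 22908 to 31009 CPM. One 3T3 library stood apart. For replicate 1 in WT medium, the chi-square per degree of freedom over genes was 23.1 and 24.9 against its fellow libraries, which were at 2.29 against each other. Its difference changed with transcript length, with a median log2 difference from the other replicates of 0.267 for genes under 2 kb and -0.393 for genes over 8 kb.

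The fibroblasts held the matrix proteoglycans, and both cell types held the syndecans. In 3T3 cells in WT medium, 8 of the 10 genes were higher than in WT macrophages by edgeR's test and 0 were lower, also at an unadjusted p under 0.05, where 44.9% and 40.4% of all genes tested were higher and lower, together 85.3%. The cell types did not overlap for these 8 genes, against 85.1% of all genes. In bulk RNA, fewer cells with a transcript and less of it per cell cannot be told apart.

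Decorin was at 1044.5, 922 and 971 CPM in 3T3 replicates 1, 2 and 3 in WT medium, and at 0, 0.363 and 0 CPM in the WT macrophages. Biglycan was at 1490, 1607 and 1599.5 CPM in these fibroblasts against 0.714, 0.848 and 0.304 CPM in the macrophages. For both genes every fibroblast library lay far above every macrophage library. The ratio of the summed counts per total count was 9455 for decorin (95% counting interval 4344 to 25765), which rests on 6 macrophage counts, and 3053 for biglycan (2138 to 4525). Lumican, on chromosome 10 beside decorin, had 0 counts in all 3 WT macrophage libraries and was at 214, 184 and 202 CPM in the fibroblasts, at least 1074-fold higher in CPM when the macrophages are set at a floor of 3 counts per library. Perlecan, the heparan sulfate proteoglycan of basement membranes, was at 539, 960 and 1082 CPM in the fibroblasts and at 0.195, 0.484 and 0.061 CPM in the macrophages, a ratio of 4229 (2421 to 8185) that rests on 12 macrophage counts. Has2 had no count in WT macrophages and was at 15.5, 16.0 and 19.8 CPM in the fibroblasts, at least 91.8-fold higher at the same floor. These intervals and floors cover counting error only.

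Versican, glypican-1 and Cspg4 were counted well in both cell types and were higher in the fibroblasts. Versican was at 15.7, 13.7 and 12.5 CPM in WT macrophages and at 524, 729 and 789 CPM in fibroblasts in WT medium, a log2 difference of 5.61 (standard error 0.165, edgeR adjusted p = 1.37e-12). Glypican-1, a heparan sulfate proteoglycan held to the membrane by a lipid anchor, was at 19.7, 22.2 and 20.1 CPM against 202, 189 and 192 CPM, a log2 difference of 3.23 (standard error 0.0584, edgeR adjusted p = 1.68e-14). Cspg4, a transmembrane proteoglycan known from pericytes, was at 3.44, 3.21 and 3.96 CPM against 54.0, 68.3 and 74.9 CPM, a log2 difference of 4.21 (standard error 0.135, edgeR adjusted p = 3.22e-12). For each of these genes the lowest fibroblast library lay above the highest macrophage library.

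The syndecans, transmembrane heparan sulfate proteoglycans that act as co-receptors for growth factors and integrins, stood at like levels in both cell types. Syndecan-1 was at 106, 97.9 and 100.4 CPM in WT macrophages and at 101, 98.5 and 97.5 CPM in fibroblasts in WT medium. Syndecan-4 was at 140, 134 and 126 CPM against 135, 121 and 116 CPM. The libraries of the 2 cell types overlapped for both genes. The log2 difference was -0.03 for syndecan-1 (95% interval -0.15 to 0.08, edgeR adjusted p = 0.541) and -0.11 for syndecan-4 (-0.25 to 0.04, adjusted p = 0.142). Without 3T3 WT medium replicate 1, syndecan-4 passed the test at a log2 difference of -0.16 (adjusted p = 0.0192).

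**Figure D1:**
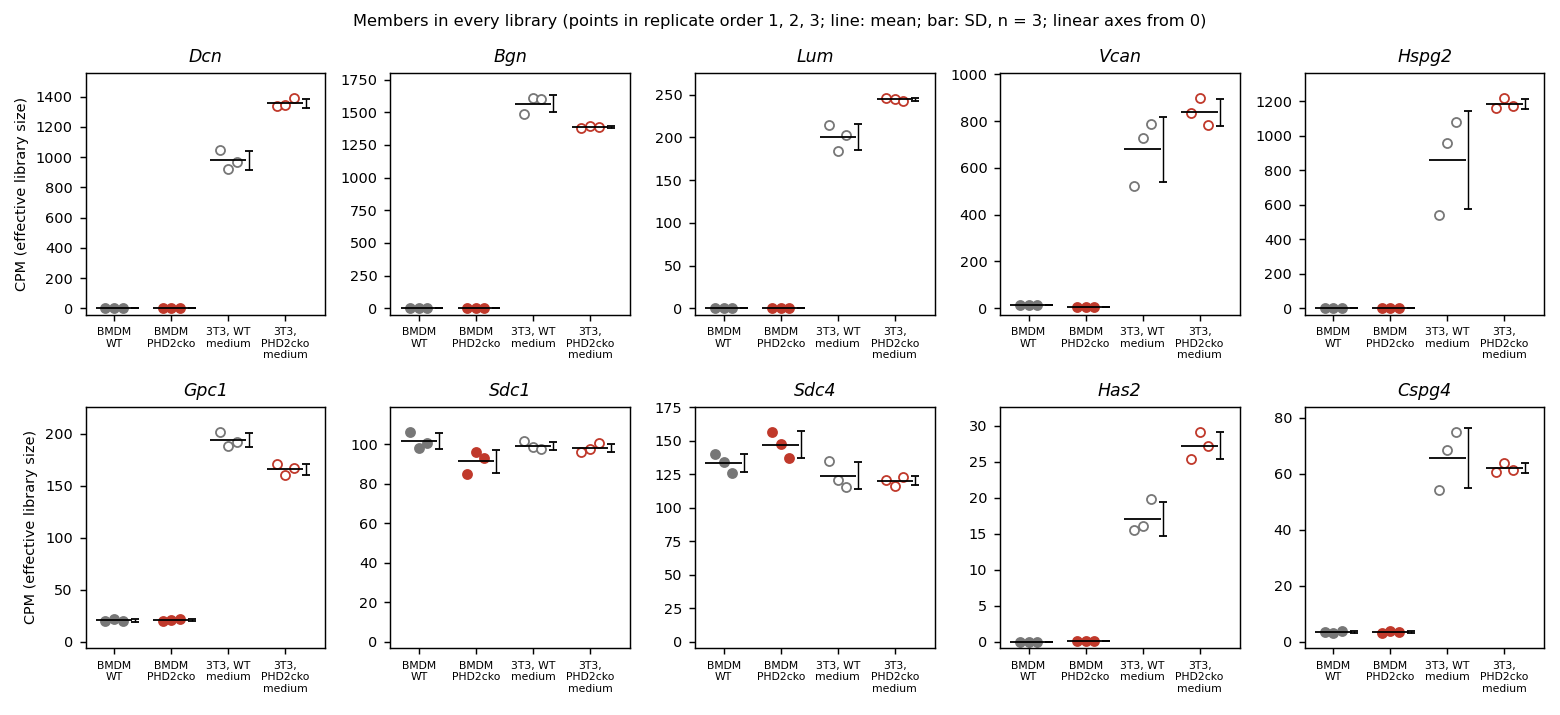
Level of each of the 10 genes in every library, in CPM of the effective library size on linear axes that start at 0. Points are libraries in replicate order, lines are means and bars are SDs (n = 3), with macrophages filled and fibroblasts open, WT in grey and PHD2cko in red. Fibroblasts are far above macrophages for every gene but Sdc1 and Sdc4, and WT medium replicate 1 is far below the other points of its group for Hspg2, Vcan and Cspg4.

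Divided by the length of the merged exons, the levels in 3T3 cells in WT medium ran from 257 ± 10.7 CPM per kb for biglycan (SD, n = 3), 168 ± 10.5 for decorin and 81.8 ± 6.10 for lumican to 5.51 ± 0.897 for Cspg4 and 4.04 ± 0.559 for Has2. Between them stood perlecan at 60.1 ± 19.9, syndecan-4 at 48.6 ± 3.93, versican at 47.0 ± 9.60, glypican-1 at 37.6 ± 1.33 and syndecan-1 at 26.0 ± 0.526 CPM per kb. Biglycan and decorin did not overlap with their neighbours in this order. Perlecan overlapped with lumican, syndecan-4, versican and glypican-1, and Cspg4 overlapped with Has2. In WT macrophages the order was led by syndecan-4 at 52.4 ± 2.70 CPM per kb and syndecan-1 at 26.6 ± 1.11, followed by glypican-1 at 4.01 ± 0.263 and versican at 0.966 ± 0.113, with no overlap between these 4. The other 6 genes had means of at most 0.296 CPM per kb there.

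In 3T3 cells kept in medium of PHD2cko macrophages, Has2, decorin and lumican mRNA rose and glypican-1 mRNA fell against WT medium. Thus 4 of the 10 genes passed the test, 3 higher and 1 lower, where 15.7% of all genes tested passed, 8.93% higher and 6.75% lower. The groups did not overlap for 6 of the 10 genes, against 31.9% of all genes.

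Has2 (chr15:56665627-56694539 on GRCm38, minus strand) encodes the hyaluronan synthase that makes long hyaluronan chains in mesenchymal cells. It was at 15.5, 16.0 and 19.8 CPM in replicates 1, 2 and 3 in WT medium and at 25.4, 29.2 and 27.2 CPM in PHD2cko medium. Every library in PHD2cko medium was above every library in WT medium. The log2 fold change was 0.67 (standard error 0.0991, 1.60-fold, edgeR adjusted p = 0.00123), and it passed under all 8 alternatives and with each of the 6 libraries left out. Has2 shares 182 bases of exon with Has2os on the opposite strand, which is not in the table, and the strand setting of the counts is not stated, so reads of the 2 transcripts cannot be told apart.

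Decorin (chr10:97479609-97518143, plus strand) binds collagen fibrils and TGFβ. It was at 1044.5, 922 and 971 CPM in WT medium and at 1335, 1345 and 1389 CPM in PHD2cko medium, again without overlap. The log2 fold change was 0.47 (standard error 0.123, 1.39-fold, edgeR adjusted p = 0.0217). It kept its direction but missed the threshold without WT medium replicate 2 (0.43, adjusted p = 0.0758) and without PHD2cko medium replicate 3 (0.45, adjusted p = 0.0803). Lumican (chr10:97565128-97572703, plus strand), which like decorin regulates the width of collagen fibrils, was at 214, 184 and 202 CPM in WT medium and at 245, 245 and 243 CPM in PHD2cko medium. The 3 libraries in PHD2cko medium lay above all 3 in WT medium and differed little, with an SD of 1.43 CPM against 14.9 CPM in WT medium. Its log2 fold change was 0.29 (standard error 0.0642, 1.22-fold, edgeR adjusted p = 0.0129).

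Biglycan, the closest relative of decorin among these genes, did not pass the test. It was at 1490, 1607 and 1599.5 CPM in WT medium and at 1382, 1396 and 1385 CPM in PHD2cko medium. The groups did not overlap, with PHD2cko medium below, but the log2 fold change of -0.17 (95% interval -0.37 to 0.02) did not pass (edgeR adjusted p = 0.230). The DESeq2 Wald test (adjusted p = 0.00547) and limma-voom (adjusted p = 0.0481) called it lower. The count ratio of decorin to biglycan within a library, which needs no scaling and was chosen after the values were seen, was 0.701, 0.574 and 0.607 in WT medium and 0.967, 0.964 and 1.00 in PHD2cko medium. It was 1.56 times as high in PHD2cko medium, with an exact two-sided permutation p of 0.1, the smallest that 3 against 3 libraries allow. Per kb of merged exon, decorin stood at 232 ± 4.85 and biglycan at 227 ± 1.20 CPM in PHD2cko medium (SD, n = 3), with overlapping libraries. Divided by the longest transcript of each, biglycan stayed above decorin, at 520 against 289 CPM per kb.

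Glypican-1 (chr1:92831645-92860779, plus strand) was the member that fell. It was at 202, 189 and 192 CPM in WT medium and at 170, 160 and 167 CPM in PHD2cko medium, with no overlap. The log2 fold change was -0.23 (standard error 0.0494, edgeR adjusted p = 0.00847). It missed the threshold when only the 3T3 libraries were fitted (-0.22, adjusted p = 0.0558). Its exons share 977 bases with Ankmy1 on the opposite strand, which had at most 2 counts in any 3T3 library.

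The genes with the longest transcripts were those on which replicate 1 in WT medium weighed most. Perlecan was at 539, 960 and 1082 CPM in WT medium and at 1162, 1217 and 1172 CPM in PHD2cko medium. All libraries in PHD2cko medium were higher, but the log2 fold change of 0.46 (95% interval 0.05 to 0.87) did not pass (edgeR adjusted p = 0.125). Its longest transcript has 14.2 kb, and replicate 1 lay at a log2 difference of -0.919 from replicates 2 and 3. Without that library perlecan passed at a smaller log2 fold change of 0.23 (adjusted p = 0.0355), and without WT medium replicate 3 at 0.66 (adjusted p = 0.0356). Versican, with a longest transcript of 12.4 kb, was at 524, 729 and 789 CPM in WT medium and at 833, 897 and 783 CPM in PHD2cko medium. These groups overlapped, and the log2 fold change of 0.30 (95% interval 0.02 to 0.58) did not pass (adjusted p = 0.143), nor did the 0.16 without replicate 1 (adjusted p = 0.126). Cspg4, of 8.12 kb, was at 54.0, 68.3 and 74.9 CPM against 60.6, 63.9 and 61.1 CPM, with the libraries in PHD2cko medium inside the range of WT medium. Its log2 fold change was -0.09 (adjusted p = 0.573), and without replicate 1 it passed as lower at -0.19 (adjusted p = 0.0230).

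**Figure D2:**
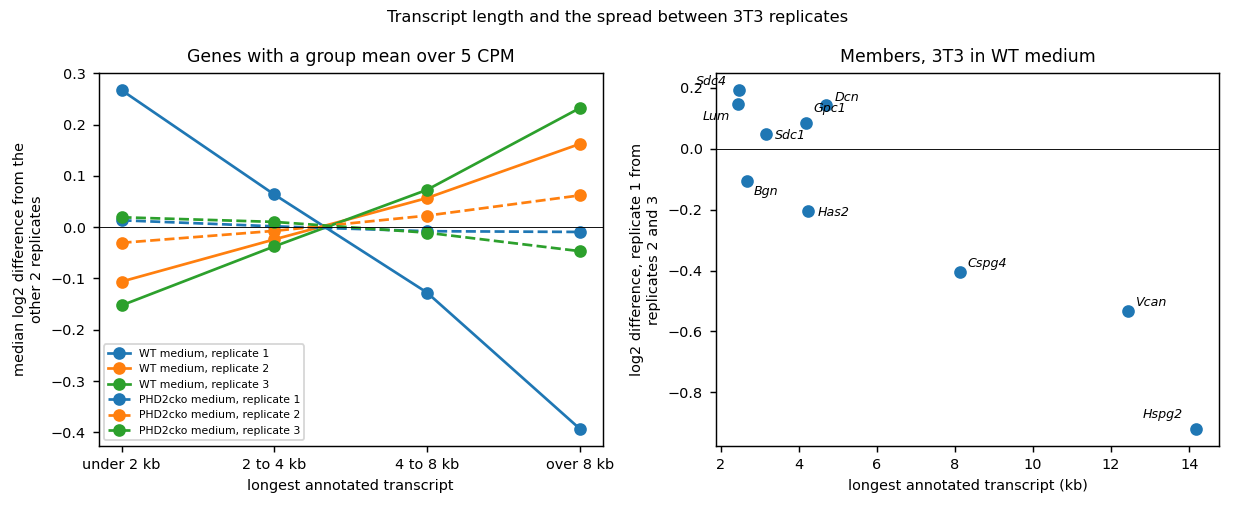
Left, median log2 difference of each 3T3 library from the other 2 replicates of its group, over genes with a group mean over 5 CPM, by length of the longest annotated transcript; solid lines are WT medium and broken lines PHD2cko medium. Right, log2 difference of WT medium replicate 1 from replicates 2 and 3 for each of the 10 genes against its transcript length in kb. WT medium replicate 1 runs from 0.267 under 2 kb to -0.393 over 8 kb, and Hspg2, Vcan and Cspg4 lie lowest.

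The syndecans differed little between the media. Syndecan-1 was at 101, 98.5 and 97.5 CPM in WT medium and at 95.9, 97.7 and 100.3 CPM in PHD2cko medium. Syndecan-4 was at 135, 121 and 116 CPM against 121, 116 and 123 CPM. Both genes overlapped between the media, with log2 fold changes of -0.02 (95% interval -0.13 to 0.09, edgeR adjusted p = 0.871) and -0.04 (-0.19 to 0.10, adjusted p = 0.720).

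Sums of cell type markers in the 3T3 libraries moved with the medium. The summed macrophage markers were at 32.6 to 37.3 CPM in 3T3 libraries in WT medium, where 19 of the 22 were counted in every library, and at 200 to 841 CPM in PHD2cko medium, where all 22 were (exact permutation p = 0.1, the smallest possible). Relative to the BMDM libraries this was 0.0859 to 0.0984% in WT medium and 2.50, 0.593 and 2.24% in PHD2cko replicates 1, 2 and 3. At these shares macrophage RNA would make up at most 2.47% of the counts of syndecan-4, 1.92% of syndecan-1, 0.246% of glypican-1 and 0.115% of any other member. With the share subtracted, the same 4 genes passed, Has2 at a log2 fold change of 0.71, decorin at 0.51, lumican at 0.32 and glypican-1 at -0.19. The summed fibroblast markers were also higher in PHD2cko medium, at 30026 to 31009 CPM against 22908 to 25343 CPM. The single markers went both ways, 9 of 13 with a fold above 0 and 4 below. Of the 13, 5 passed as higher, among them the abundant Col3a1 (0.87, edgeR adjusted p = 8.38e-04), and Thy1 as lower (-0.27, adjusted p = 0.0137). The likewise abundant Col1a1, Col1a2 and Col6a1 did not pass (0.18, 0.05 and 0.09, adjusted p = 0.329, 0.845 and 0.693). The 6 smooth muscle markers were likewise counted in every 3T3 library. Their sum was lower in PHD2cko medium, at 317 to 340 CPM against 582 to 627 CPM. The part of these marker changes in the decorin and lumican results was not tested.

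**Figure D3:**
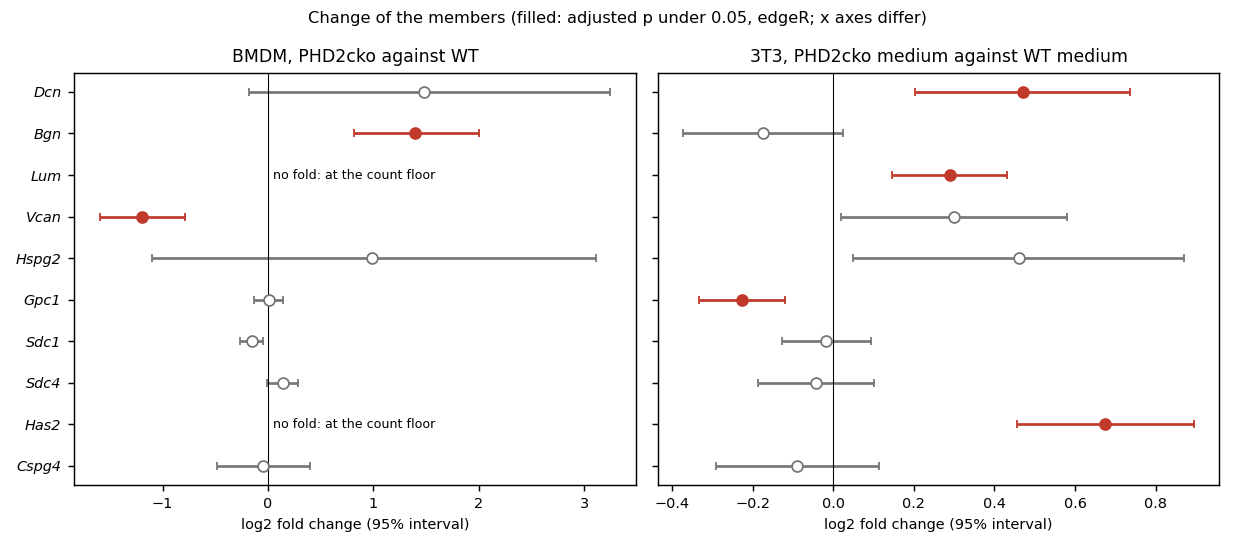
Fitted log2 fold change of each gene with its 95% interval, in BMDMs (left, PHD2cko against WT) and 3T3 cells (right, PHD2cko against WT medium); filled points passed an adjusted p of 0.05 and the x axes differ. In BMDMs Bgn lies at 1.40 and Vcan at -1.19; in 3T3 cells Dcn, Lum and Has2 lie above 0 and Gpc1 below. No fold is drawn for Lum and Has2 in BMDMs, where both groups had at most 3 counts per library.

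In macrophages labelled PHD2cko, versican mRNA was lower and biglycan mRNA higher than in WT macrophages. These 2 of the 10 genes passed the test, 1 in each direction, where 6.73% of all genes tested passed, 3.38% higher and 3.35% lower. The summed macrophage markers were also lower with this label, without overlap (37907 ± 526 against 33697 ± 643 CPM, SD, n = 3, exact permutation p = 0.1, the smallest possible), and their part in these results was not tested. The single markers went both ways, 12 of 22 with a fold above 0 and 10 below, from Mrc1 at 0.54 to the abundant Lyz2 at -0.50 (adjusted p = 0.356 and 0.570), and 0 passed in edgeR (2 had an unadjusted p under 0.05), 0 with the DESeq2 Wald test and 1, lower, with limma-voom.

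Versican (chr13:89655312-89742509, minus strand), the large hyaluronan-binding proteoglycan, had 242, 227 and 205 counts in WT replicates 1, 2 and 3 and 96, 77 and 135 counts in replicates labelled PHD2cko. This was 15.7, 13.7 and 12.5 CPM against 5.83, 5.26 and 7.09 CPM, with every library labelled PHD2cko below every WT library. The log2 fold change was -1.19 (standard error 0.187, a level of 0.438 times WT, edgeR adjusted p = 0.00176). It passed under all 7 alternatives and with each of the 6 libraries left out, between -1.33 and -1.10. Per kb of merged exon, versican was at 0.966 CPM in these WT macrophages and at 47.0 CPM in the fibroblasts, so the macrophage change took place at a low level.

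Biglycan (chrX:73483602-73495933, plus strand) changed at a level near the limit of counting. It had 11, 14 and 5 counts in WT replicates and 25, 19 and 39 counts in replicates labelled PHD2cko, which was 0.714, 0.848 and 0.304 CPM against 1.52, 1.30 and 2.05 CPM. The groups did not overlap. The log2 fold change was 1.40 (standard error 0.271, 2.64-fold, edgeR adjusted p = 0.00700), and it passed under all 6 alternatives that tested it and with each library left out. It is absent where a gene must have 10 counts in each library compared. Fibroblast markers were also counted in the macrophages, with 9 of 13 in every WT library and 11 of 13 in every library labelled PHD2cko, Twist1 at 0 in both, and sums of 1.98 to 6.47 and 6.03 to 7.15 CPM (exact permutation p = 0.3). Of the 13, 8 had a fold above 0 and 4 below, with Pdgfrb lowest at -0.36 (edgeR adjusted p = 0.595). The collagen gene Col6a1 alone passed, at 1 to 12 counts in WT libraries and 18 to 31 in those labelled PHD2cko (log2 fold change 2.03, edgeR adjusted p = 0.0107). Col1a2, at 6 to 25 against 25 to 31 counts, did not pass (0.98, adjusted p = 0.0957). A 3T3 profile at that share would carry 5.46, 8.36 and 2.55 biglycan counts in the WT libraries and 7.80, 8.08 and 9.07 in those labelled PHD2cko. The part of fibroblast RNA in the biglycan result was not tested. The neutrophil, dendritic cell and B cell lists each summed to at most 4.40 CPM in any BMDM library.

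The stretches in front of both genes are shown because these were the 2 that changed with the label in macrophages. They are the 250 bases before the start of transcription, from RefSeq on GRCm38.p6, which lists such a window for 6 of the 10 genes. Capitals mark GCGTG or ACGTG on either strand, the core letters to which hypoxia-inducible factors are known to bind.
Vcan: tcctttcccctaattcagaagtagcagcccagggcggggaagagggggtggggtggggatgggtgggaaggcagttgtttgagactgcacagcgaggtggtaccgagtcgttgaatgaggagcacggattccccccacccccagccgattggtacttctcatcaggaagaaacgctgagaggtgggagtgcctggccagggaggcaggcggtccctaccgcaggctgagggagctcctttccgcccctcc
Bgn: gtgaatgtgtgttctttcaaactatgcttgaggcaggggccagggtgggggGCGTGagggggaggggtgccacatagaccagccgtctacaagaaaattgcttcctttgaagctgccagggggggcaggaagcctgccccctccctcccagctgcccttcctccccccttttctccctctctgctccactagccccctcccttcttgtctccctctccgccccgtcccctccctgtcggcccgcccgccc
The versican window, chr13:89742513-89742762 on the minus strand, held neither motif, and the biglycan window, chrX:73483351-73483600 on the plus strand, held 1 GCGTG, whose first base lies at -199 from the start. Among the 32851 RefSeq windows of this length, 38.6% held at least 1 of the 2 motifs. A match is a description of these letters and not of binding.

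The other small leucine-rich proteoglycans and perlecan were close to the floor in macrophages. Decorin had 0, 6 and 0 counts in WT and 9, 3 and 6 counts in libraries labelled PHD2cko, and these overlapped (log2 fold change 1.48, edgeR adjusted p = 0.331). Without WT replicate 2, the only WT library with any decorin count, it passed (adjusted p = 0.0107). Perlecan had 3, 8 and 1 counts against 9, 7 and 9, which also overlapped (0.99, adjusted p = 0.671). Lumican had 1 count in all 6 BMDM libraries together, and Has2 had 0 counts in WT and 2, 1 and 1 counts in libraries labelled PHD2cko, so no fold is given for either.

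**Figure D4:**
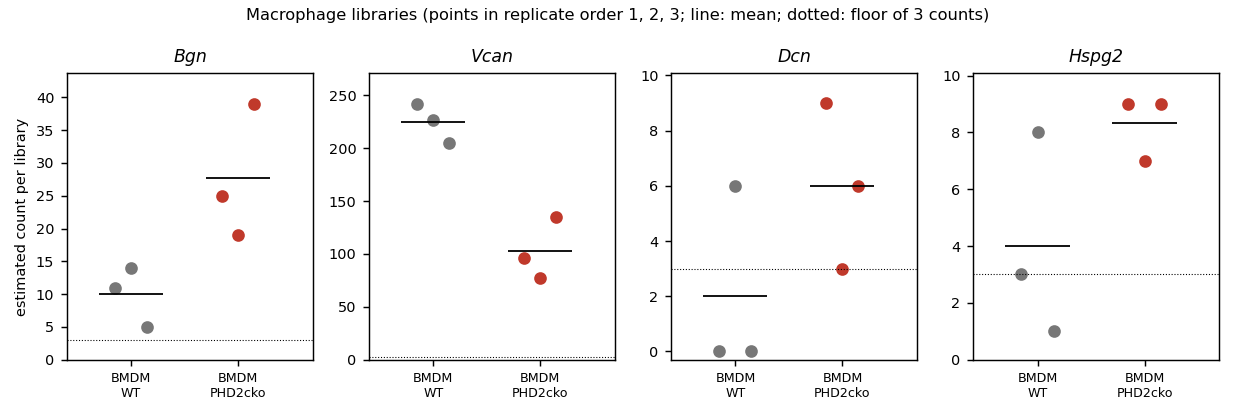
Estimated counts per BMDM library of Bgn, Vcan, Dcn and Hspg2, with points in replicate order, the mean as a line and the floor of 3 counts dotted; the y axes differ. Vcan is at 205 to 242 counts in WT and at 77 to 135 in libraries labelled PHD2cko, Bgn at 5 to 14 and 19 to 39, and the groups overlap for Dcn and Hspg2.

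Cell surface members differed little between the macrophage labels. Syndecan-1 was at 106, 97.9 and 100.4 CPM in WT and at 84.7, 96.0 and 92.7 CPM in libraries labelled PHD2cko. The libraries labelled PHD2cko were all lower, but the log2 fold change of -0.15 (95% interval -0.27 to -0.04) did not pass (edgeR adjusted p = 0.106). It passed when only the BMDM libraries were fitted (adjusted p = 0.0302). Syndecan-4 was at 140, 134 and 126 CPM against 157, 148 and 137 CPM, which overlapped (0.14, adjusted p = 0.284). Glypican-1, at 19.7, 22.2 and 20.1 CPM against 19.7, 20.8 and 21.7 CPM, had a log2 fold change of 0.01 (95% interval -0.13 to 0.15, adjusted p = 1). Cspg4, at 3.44, 3.21 and 3.96 CPM against 3.10, 3.76 and 3.46 CPM, had one of -0.04 (-0.49 to 0.40, adjusted p = 0.967). Both overlapped between the labels.

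The effect of the label in macrophages and of the medium in fibroblasts differed for the 2 genes that changed in macrophages. The medium effect minus the label effect was -1.57 on the log2 scale for biglycan (standard error 0.286, edgeR adjusted p = 0.00292) and 1.49 for versican (standard error 0.227, adjusted p = 9.30e-04), where 12.3% of all genes passed this test, 7.71% higher and 4.58% lower. It did not pass for glypican-1 (-0.23, adjusted p = 0.0882). For the genes that rose in fibroblasts, decorin did not pass (-1.01, adjusted p = 0.465), and Has2 and lumican have no macrophage fold to compare.

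The genes that build, hold and cut proteoglycans were taken from 10 lists of 113 genes, of which 112 were in the table and 89 were tested. In macrophages 5 of the 89 were higher and 3 lower with the PHD2cko label, 8.99% against 6.73% of all genes tested, and 18 passed when only the BMDM libraries were fitted, where 1202 genes in all were higher and 1332 lower. The median log2 fold change was 0.02 over the 69 with a group mean over 3 counts and 0.01 over all such genes. In 3T3 cells 10 were higher and 12 lower in PHD2cko medium, 24.7% against 15.7% (13 passed in a fit of the 3T3 libraries alone), with a median of -0.04 over 87 genes against -0.01. Of these 10, 5 were far more abundant in macrophages than in 3T3 cells and are given below. No test of a list as a whole was made.

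Among macrophage genes of the sugar chains, Chst11, a chondroitin sulfotransferase, was at 7.82 ± 1.09 CPM in WT and 13.3 ± 0.503 CPM in libraries labelled PHD2cko (SD, n = 3 each, log2 fold change 0.77, edgeR adjusted p = 0.00365). Dsel, a dermatan sulfate epimerase, rose by less (0.28, adjusted p = 0.0421). These were 2 of 14 chondroitin and dermatan sulfate enzymes tested, where 1 passed with limma-voom. Xylt2, a xylosyltransferase that starts the chains on core proteins, rose from 149.5 ± 2.05 to 185.5 ± 1.49 CPM (0.31, adjusted p = 0.00338), the gene that passed among 7 linkage region enzymes, where 2 passed with only the BMDM libraries fitted. Of 16 heparan sulfate enzymes, Extl2 rose (0.36, adjusted p = 0.00627) and Sulf2, which removes sulfate from the finished chains outside the cell, fell from 132.5 ± 3.06 to 100.4 ± 6.55 CPM (-0.40, adjusted p = 0.00164). Papss2, which makes the sulfate donor, fell from 9.28 ± 0.512 to 5.85 ± 0.340 CPM (-0.66, adjusted p = 0.00135) and was the gene that passed among 11 of precursor supply, where 4 passed with only the BMDM libraries fitted. Hyal1, the lysosomal hyaluronidase, rose from 12.4 ± 0.281 to 19.4 ± 3.60 CPM (0.64, adjusted p = 0.00641). It was the gene that passed among 12 that handle hyaluronan, where 4 passed with only the BMDM libraries fitted. Tsku, a secreted small leucine-rich protein, fell from 19.6 ± 1.08 to 12.5 ± 0.0748 CPM (-0.65, adjusted p = 7.11e-05).

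In the fibroblasts the other small leucine-rich genes moved both ways. Of 12 tested, Podn rose (log2 fold change 0.36, edgeR adjusted p = 0.0365), while Ogn, the gene of osteoglycin, fell from 363 ± 20.5 to 293 ± 14.8 CPM (-0.31, adjusted p = 0.0103) and Podnl1 fell from 57.0 ± 3.60 to 39.2 ± 0.940 CPM (-0.54, adjusted p = 4.16e-04). Hapln4, a link protein that ties hyalectans to hyaluronan, fell (-0.29, adjusted p = 0.0193). Among 6 cell surface proteoglycans, Gpc4 fell from 168 ± 4.86 to 133 ± 6.42 CPM (-0.34, adjusted p = 0.00216), in the same direction as its relative glypican-1, and Sdc2 fell by less (-0.17, adjusted p = 0.0290). The subtraction of the macrophage share took no count from Sdc2, which was then at -0.14 and did not pass (adjusted p = 0.0792).

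Beside Has2, 3 of 12 genes that handle hyaluronan were higher and 1 was lower in the fibroblast libraries in PHD2cko medium, where 8.93% of all genes were higher and 6.75% lower. The count of 4 was 2 when only the 3T3 libraries were fitted. Cemip, a protein needed for hyaluronan breakdown in fibroblasts, fell from 872 ± 147 to 570 ± 5.61 CPM (log2 fold change -0.61, edgeR adjusted p = 0.00140). Tnfaip6, which moves heavy chains onto hyaluronan, rose from 14.6 ± 1.63 to 19.6 ± 2.58 CPM (0.43, adjusted p = 0.0183), and Hmmr, a hyaluronan receptor also known from the mitotic spindle, rose by 0.16 (adjusted p = 0.0378). The third gene that was higher, Stab1, is a scavenger receptor known from macrophages, at 0.527 CPM in fibroblasts in WT medium and 1174 CPM in WT macrophages.

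Of 5 proteases known to cleave proteoglycan core proteins, Adamts1 fell from 1339 ± 72.8 to 1007 ± 85.0 CPM (log2 fold change -0.41, edgeR adjusted p = 0.00509) and Adamts5 from 405 ± 29.9 to 325 ± 11.0 CPM (-0.32, adjusted p = 0.0157). Adamts15 rose from 8.32 ± 1.40 to 13.2 ± 2.21 CPM (0.67, adjusted p = 0.0196). Among enzymes of the sugar chains and their precursors, Chst12 fell (-0.39, adjusted p = 0.00478), Dse fell (-0.12, adjusted p = 0.0431), Hs6st2 fell (-0.37, adjusted p = 0.0119), Ugp2, which makes UDP-glucose, fell (-0.22, adjusted p = 0.00535), and Chpf2 rose (0.19, adjusted p = 0.0120).

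Of the list genes that were higher in PHD2cko medium, 5 were far more abundant in macrophages than in fibroblasts in WT medium, and the macrophage markers were higher in PHD2cko medium too. Stab1 was at 1174 ± 30.6 CPM in WT macrophages and went from 0.527 ± 0.0177 to 22.5 ± 13.1 CPM in the fibroblast libraries. Srgn, the proteoglycan of secretory granules in blood cells, was at 102 ± 5.03 CPM in macrophages and went from 0.240 ± 0.117 to 3.42 ± 2.28 CPM. Hpse, the heparanase, was at 308 ± 5.82 CPM in macrophages and went from 0.303 ± 0.105 to 3.14 ± 1.89 CPM. Like Xylt1, these 3 genes were below 1 CPM in fibroblasts in WT medium. Xylt1 was at 127 ± 3.64 CPM in macrophages and went from 0.450 ± 0.258 to 1.33 ± 0.552 CPM, and Sdc3 was at 516 ± 29.4 CPM in macrophages and went from 48.6 ± 2.25 to 70.2 ± 9.96 CPM. With the macrophage share subtracted, Sdc3 was higher at a log2 fold change of 0.41 (adjusted p = 0.00281) and Srgn at 3.76 (adjusted p = 0.00345), the latter on 3, 2 and 5 counts left in WT medium and 64, 7 and 49 in PHD2cko medium. The subtraction, which stops at 0, took every count of Hpse and Xylt1 in the 3 libraries in PHD2cko medium, so their folds after it are not given. It also took every count of Stab1 in WT medium and left 116, 30 and 192 of its 573, 127 and 631 counts in PHD2cko medium. The part of macrophage RNA in the higher levels of these 5 genes was not tested.

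**Figure D5:**
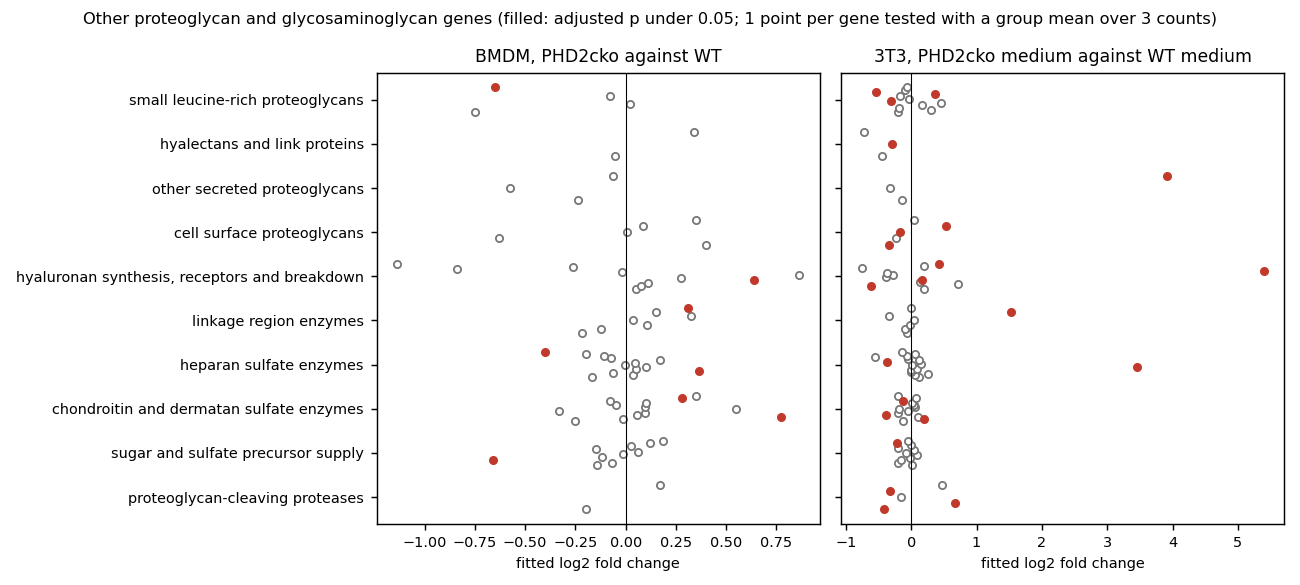
Fitted log2 fold change of each other proteoglycan and glycosaminoglycan gene that was tested and had a group mean over 3 counts, by list, in BMDMs (left) and 3T3 cells (right); filled points passed an adjusted p of 0.05 and the x axes differ. In 3T3 cells Stab1 at 5.40, Srgn at 3.91, Hpse at 3.46 and Xylt1 at 1.52 stand to the right of all others.

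Over the 12 libraries, the genes most like 8 of the members in log2 CPM had a Pearson r of at least 0.9986 with them, which describes the split into 6 macrophage and 6 fibroblast libraries that all of these points share. Among 13489 genes compared, 955 had an r above 0.99 with decorin, led by Pdlim7, Cacna2d1 and Sparc. For biglycan they were 1316, led by Mfap5 and Col4a1, and for lumican 1762, led by Aspg, Gja1 and Irx2. Versican had 431, led by Slc7a1, Cask and Zcchc14, and perlecan 1247, led by Lancl3, Zfhx4 and Rgs12. Has2 had Syncrip and Mcm2 among the genes most like it, glypican-1 was most like Klhdc8a, Cdsn and Npdc1, and Cspg4 most like Faxc, Arhgef17 and Slit3. The syndecans, which did not separate the cell types, had no gene above 0.99. Syndecan-1 was most like Nxpe4 (r = 0.823), Pbx4 (0.809) and Gm16199 (0.807), and syndecan-4 most like Pin4 (0.927), Zfp947 (0.926) and Hook2 (0.923).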

How the data were processed

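RNA of 12 libraries was analysed, 3 in each of 4 groups, and groups and replicate numbers come from the sample labels. The authors deposited estimated counts per gene, made with Kallisto on mouse GRCm38 and summed to genes, as whole numbers, without normalization or filter for 32544 genes; the version of Kallisto, how the estimates became whole and the strand setting are not stated in the sources used here. In 0 columns the sample was unknown.

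Counts were fitted with edgeR 4.0.16 in R 4.3.3. filterByExpr with the 4 groups kept 14285 genes, libraries were scaled by TMM, and 1 quasi-likelihood model was fitted to all 12. Contrasts were tested on both sides, p-values were adjusted by Benjamini and Hochberg's method over every gene tested, and the threshold was 0.05. CPM are counts over the effective library size times 1000000; marker sums use the total count. Standard errors and 95% intervals come from the fit. With 15516465 to 25199770 counts per library, 3 counts, the floor used for folds, were at most 0.205 CPM. Marker sums and ratios were compared by exact permutation with SciPy 1.17.1. The macrophage share of a 3T3 library was its summed macrophage markers over the mean of the BMDM libraries with the label of its medium; the share times the mean BMDM profile was subtracted, rounded, with a floor of 0.

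Gene positions, exon lengths and overlaps come from the GENCODE M21 annotation of GRCm38, in which 31400 symbols matched directly. Promoter windows come from RefSeq, with none listed for decorin, lumican, glypican-1 and Has2.

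The 10 genes and all lists were chosen with earlier results of these data known. From each list the genes past the threshold are named, at most 4 per comparison, taken by the size of the log2 fold change where the mean reached 1 CPM in a compared group. For each member the 3 other genes with the highest Pearson r are named, except where an item is not reported here. The decorin to biglycan ratio and the promoters shown were chosen after the values were seen.

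Scripts were first tested on simulated counts with known changes. As alternatives, size factors of DESeq2 1.42.0 replaced TMM, its Wald test or limma 3.58.1 with voom, which the study used, replaced edgeR, the filter asked for 10 counts in each library compared or for 1 count in any, the fit took only the compared libraries, without or with a block for replicate number, single libraries were left out, and the macrophage share was subtracted. The replicate numbers did not pair the libraries.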

Additional observations from a re-analysis of the deposited data

Results flagged for a closer look

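The effect of the PHD2cko label in macrophages and of PHD2cko medium in 3T3 cells differed for biglycan and versican, by a test of the difference itself. For biglycan the medium effect minus the label effect was -1.57 on the log2 scale (edgeR adjusted p = 0.00292), from 1.40 in macrophages and -0.17 in fibroblasts, and every library labelled PHD2cko was higher in macrophages while every library in PHD2cko medium was lower in fibroblasts. For versican it was 1.49 (adjusted p = 9.30e-04), from -1.19 and 0.30, where the fibroblast groups overlapped. Biglycan was counted 5 to 39 times in macrophage libraries and was at 1382 to 1607 CPM in fibroblasts, and versican was at 5.26 to 15.7 and 524 to 897 CPM. Both passed with each of the 12 libraries left out, biglycan between -1.87 and -1.24 and versican between 1.35 and 1.63.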

How the results depend on the processing

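In macrophages, 1 of the 10 genes was higher and 1 lower with the PHD2cko label. With at least 10 counts in every library, 0 were higher, since the filter removed biglycan. When only the BMDM libraries were fitted, 2 were lower, syndecan-1 with versican, and 18 genes of the pathway lists passed against 8. With each library left out, 1 to 2 were higher. In 3T3 cells 3 were higher and 1 lower. The DESeq2 Wald test and limma-voom each called 2 lower, biglycan with glypican-1, and a fit of the 3T3 libraries alone called 0 lower at an adjusted p under 0.05 (glypican-1 had an unadjusted p of 0.00408), with 13 genes of the pathway lists against 22. With each library left out, 2 to 4 were higher and 1 to 2 lower. Between cell types, 3 of the 10 genes were higher with at least 10 counts in every library against 8, since the filter removed the other 5, and 0 to 1 were lower with each library left out. The difference between the effects was called lower for 0 genes with at least 10 counts in every library and for 1 to 2 with each library left out; the second was decorin without BMDM WT replicate 2. Over all genes, the fit of the compared libraries alone called 1202 higher and 1332 lower in macrophages, against 483 and 478, and 566 higher and 346 lower in 3T3 cells, against 1276 and 964. Where no cause is named, it was not tested.

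Small differences that had not passed changed sign. Syndecan-1 was at 7.6e-04 in 3T3 cells with the macrophage share subtracted and at 0.020 between cell types with at least 10 counts. With each library left out, the log2 fold change ran from -0.030 to 0.062 for glypican-1 and -0.11 to 0.047 for Cspg4 in macrophages, and from -0.034 to 0.020 for syndecan-1, -0.089 to 0.043 for syndecan-4 and -0.19 to 0.012 for Cspg4 in 3T3 cells. The difference of effects for Cspg4 ran from -0.14 to 0.054. Of the other values of single genes under alternatives, 226 kept their direction and side of the threshold, 4 passed only there and 3 no longer passed. With libraries left out, these numbers were 233, 6 and 2.

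Libraries with the same replicate number did not deviate together (correlations of -0.0222, -0.00971 and 0.0199 in macrophages and 0.0217, 0.0242 and -0.0497 in 3T3 cells), and not every library correlated best with its own number. With the replicate number as a block, 2 genes were higher in macrophages, syndecan-4 (adjusted p = 0.00840) with biglycan, and 0 were lower in 3T3 cells, where lumican (adjusted p = 0.0711) and glypican-1 (adjusted p = 0.108) missed the threshold. The block called 1144 genes higher and 1273 lower in macrophages and 375 and 191 in 3T3 cells.

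At this depth a gene at or under 3 counts gives no fold, which holds for lumican and Has2 in macrophages.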

Other observations

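Ratios of collagen-binding proteoglycans within a library need no scaling. The count ratio of lumican to biglycan was 0.144, 0.115 and 0.127 in 3T3 cells in WT medium and 0.178, 0.176 and 0.175 in PHD2cko medium, 1.37 times as high, with no overlap. The ratio of decorin to lumican was 4.88, 5.01 and 4.80 against 5.44, 5.49 and 5.72, 1.13 times as high and again without overlap. Both had an exact two-sided permutation p of 0.1, the smallest that 3 against 3 libraries allow, and both were chosen after the values were seen.

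The RefSeq windows of 250 bases before the start held 1 GCGTG or its reverse for syndecan-1 and syndecan-4, 2 for perlecan and 0 for Cspg4, and no ACGTG for any of these 4 genes. These genes did not pass the test of the label in macrophages.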
